A study of Mus musculus with 29 samples.

Results

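The genes described here encode the constitutive proteasome of mouse muscle, and were taken from the count table by symbol: every Psma, Psmb, Psmc, Psmd, Psme, Psmf and Psmg gene with a number, except the immunoproteasome genes Psmb8, Psmb9, Psmb10, Psme1 and Psme2. The rule found 43 of the 22537 genes in the table, and the rule itself uses symbols alone. They fall into 14 constitutive subunits of the core and 2 tissue-restricted ones, 17 subunits of the base and lid, 7 assembly chaperones, and 3 genes of activators and an inhibitor. The study asked how the transcriptome of the tibialis anterior (TA), a fast muscle of the lower leg, differs in mice whose physical function had declined with age. RNA-seq of the whole TA was made from C57BL/6 male mice of the National Institute on Aging colony, with no treatment or engineered allele in any group. The groups were 6m (7 mice), 24m (7 mice) and 28 months or older, called 28m (8 mice). In the first run 24m was sequenced beside 6m. In the second run 28m was sequenced beside a repeat library from each of the 7 mice of 6m, so that 22 mice gave 29 libraries. Each age was compared with the 6m libraries of its own run. Total counts ranged from 17633475 to 33499162 per library with a median of 24250878, and the summed level of 8 fast-fibre marker genes lay between 132000 and 221000 CPM (read counts relative to the scaled total of the library) in every library.

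The proteasome is the main protease for ubiquitin-tagged proteins in the cytosol and nucleus. Its barrel-shaped core has outer alpha rings, which gate the entrance, and inner beta rings, which hold the proteolytic sites. A regulatory particle caps the core: its base holds a ring of ATPases that unfold the substrate, and its lid removes the ubiquitin chain. In muscle this pathway is known for its part in the loss of myofibrillar protein during atrophy. Subunits are incorporated in fixed proportions, and dedicated chaperones help to assemble the base and the core.

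Transcripts of nearly every subunit were more abundant at 28m. Of the 43 genes, 41 passed the filter on low counts, 37 were higher at 28m than at 6m, 1 was lower and 3 did not pass the test (edgeR's quasi-likelihood test, Benjamini-Hochberg adjusted p under 0.05 over all genes). Of all 12994 genes tested, 24.3% were called higher and 22.9% lower. An unadjusted p under 0.05 was reached by 39 of the 41, against 54.8% of all genes. The median log2 fold change (log2fc) of the 41 was 0.60, against 0.0091 over all genes tested. In 28 of the 41 all 8 mice at 28m lay above all 7 mice at 6m, as did 5.65% of all genes, and in 1 all lay below, as did 6.66%. These differences varied with transcript length, which is described after the members. With a trend with transcript length and GC content removed, 13 of the 38 calls were lost, those of Psma1, Psma4, Psmb2, Psmb7, Psmd3, Psmd6, Psmd7, Psmd8, Psmd10, Psmd11, Psmg1, Psmg2 and Psmg3. Whole muscle was sequenced, so that fewer cells of a type and less RNA per cell cannot be told apart.

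**Figure D1:**
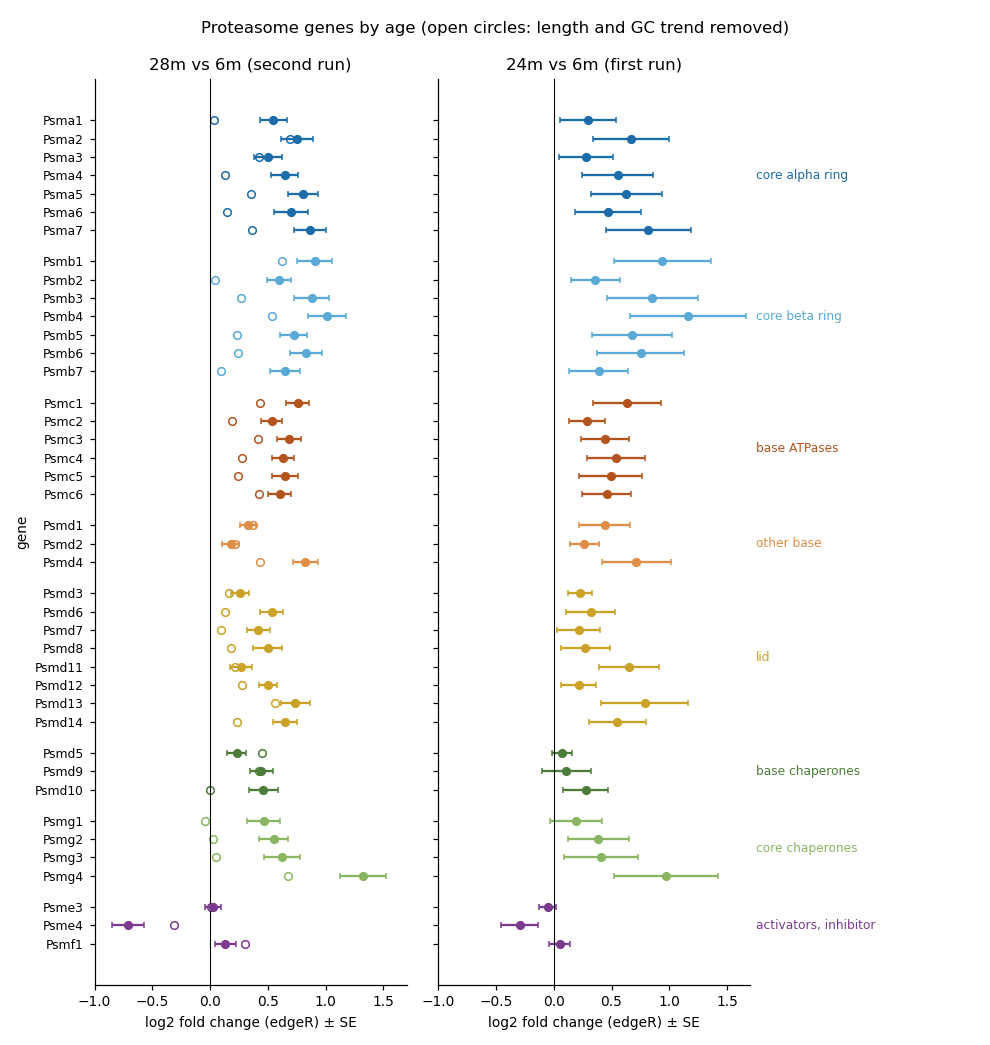
log2fc of the 41 tested proteasome genes (points) with its standard error (bars), at 28m on the left and at 24m on the right, coloured by subcomplex. Open circles give the 28m value after a trend with transcript length and GC content was removed. Filled points on the left lie right of 0 for 40 of the 41 genes, and Psme4 lies left of 0 at -0.71.

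The catalytic subunits come first. Psmb5 carries the chymotrypsin-like site of the core, Psmb6 the caspase-like site and Psmb7 the trypsin-like site. In the second run the CPM of Psmb5 was 63.0, 66.3 and 72.7 at 6m (lowest, median and highest of 7 mice) and 77.8, 111.8 and 149.1 at 28m (8 mice). The groups did not overlap, and the log2fc was 0.72 ± 0.12 (SE), with an adjusted p of 0.000542 (edgeR's quasi-likelihood test, as for each adjusted p below). Psmb6 stood at 106.5, 112.4 and 120.5 CPM at 6m and at 131, 192 and 283 CPM at 28m. Its log2fc was 0.83 ± 0.14, and again every 28m mouse was above every 6m mouse. Psmb7 stood at 198, 204 and 216 CPM at 6m and at 233, 317 and 486 CPM at 28m, with a log2fc of 0.65 ± 0.13 (edgeR's adjusted p 0.00143), which fell to 0.09 and was no longer called with that trend removed. Replicate 3 of the 28m mice had the highest level of each, and its Psmb7 value stood apart from the other 7 mice.

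**Figure D2:**
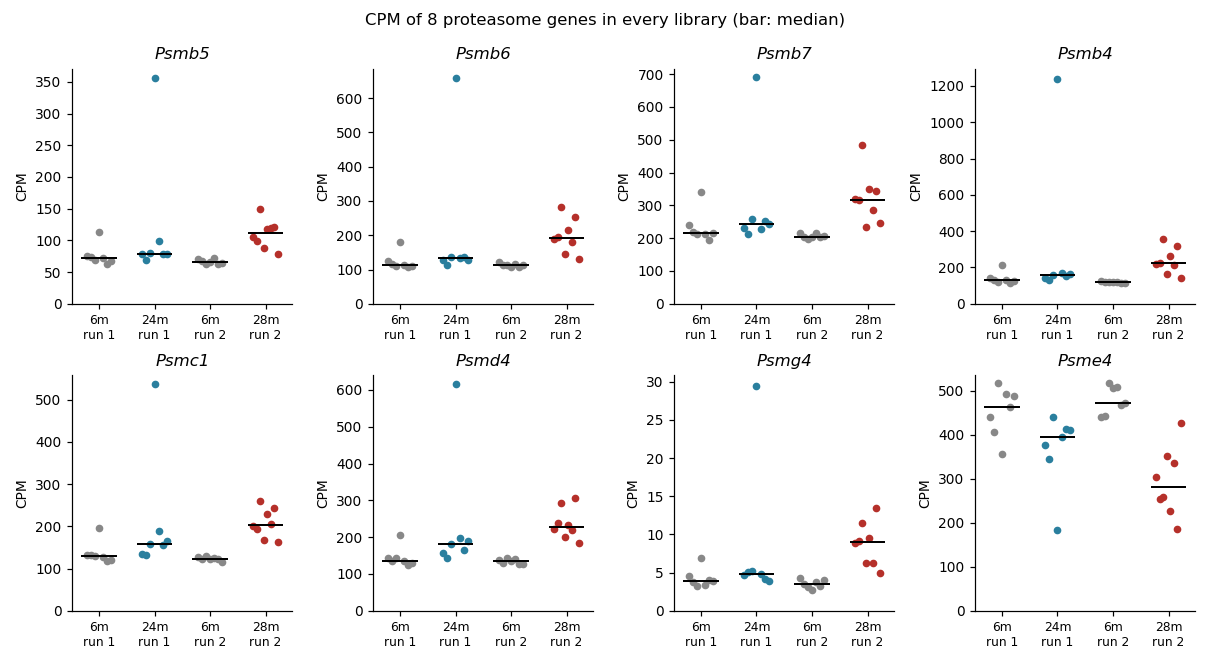
CPM of 8 genes in each library (points) with the group median (bar), for 6m and 24m in the first run and 6m and 28m in the second. For Psmb5 the 28m mice span 77.8 to 149.1 CPM, above the second-run 6m libraries at 63.0 to 72.7 CPM, and 1 mouse at 24m stands at 356.3 CPM.

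All 14 core subunits were higher at 28m, with a median log2fc of 0.74 and a range from 0.50 to 1.01. Once the length and GC trend was removed, the median was 0.25 and the range 0.03 to 0.69, and 10 were called. Among the 7 alpha subunits Psma7 had the highest log2fc, 0.86 ± 0.14, with 70.7, 73.7 and 85.3 CPM at 6m and 95.6, 134.5 and 196.2 CPM at 28m. Psma3 had the lowest, 0.50 ± 0.12 (edgeR's adjusted p 0.00430), with 64.8, 67.5 and 79.0 CPM at 6m and 73.8, 93.2 and 142.6 CPM at 28m. It was the only alpha subunit whose groups overlapped, 6 of the 8 old mice being above all those at 6m.

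Among the 7 beta subunits Psmb4, a structural subunit without a proteolytic site, had the highest log2fc. Its CPM was 112.3, 118.1 and 126.9 at 6m and 143.1, 222.0 and 354.6 at 28m, a log2fc of 1.01 ± 0.16 with an adjusted p of 0.000536 by edgeR's quasi-likelihood test. It was 1 of 2 members that passed the test with a log2fc of at least 1, as 2.33% of all genes did. With the trend removed Psmb4 stood at 0.53, still called, and no member reached 1. Psmb2 had the lowest log2fc of the beta ring, 0.59 ± 0.11, with 56.1, 59.1 and 61.9 CPM at 6m and 71.7, 85.9 and 117.3 CPM at 28m, and its call was lost with the trend removed. None of the 7 beta subunits overlapped between the groups.

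The 6 ATPases of the base were also all higher, within a narrow range from 0.53 to 0.76 and with a median of 0.64. Once the length and GC trend was removed, the median was 0.35 and the range 0.19 to 0.43, and all 6 were called. Psmc1 had the highest log2fc, 0.76 ± 0.10 (edgeR's adjusted p 0.000232), and its CPM was 114.6, 123.5 and 130.0 at 6m and 163.1, 203.0 and 261.1 at 28m. Psmc2 had the lowest, 0.53 ± 0.09, with 108.9, 113.9 and 124.3 CPM at 6m and 142.0, 160.0 and 222.3 CPM at 28m. In each of the 6 all 8 mice at 28m were above all 7 mice at 6m.

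The other base subunits differed more among themselves as counted, from 0.18 to 0.82. With the length and GC trend removed they ranged from 0.22 to 0.43, beside 0.19 to 0.43 for the ATPases. Psmd4, a ubiquitin receptor of the base, had the lowest adjusted p of all members at 28m, 0.000172 by edgeR's quasi-likelihood test, with 127.4, 135.8 and 144.5 CPM at 6m and 184.8, 227.9 and 305.4 CPM at 28m. Its log2fc was 0.82 ± 0.11. Psmd1 and Psmd2 are the large scaffold subunits of the base. Psmd1 was higher by a log2fc of 0.33 ± 0.07 (edgeR's adjusted p 0.00198). Psmd2 was the only structural subunit that did not pass the test, with a log2fc of 0.18 ± 0.07 and an adjusted p of 0.0530 by edgeR. Its CPM was 284.5, 301.1 and 329.7 at 6m and 281.6, 349.7 and 380.5 at 28m, so that the groups overlapped and 6 of 8 mice lay above all those at 6m. Over 28 other settings its adjusted p ranged from 0.0125 to 0.202 by edgeR or the alternative tools, and it passed in 11 of them.

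All 8 lid subunits were higher, with a median log2fc of 0.50, or 0.20 with the trend removed. Psmd13 had the highest, 0.74 ± 0.13, with 66.2, 70.9 and 74.7 CPM at 6m and 82.2, 111.6 and 151.2 CPM at 28m. Psmd14, the deubiquitinase of the lid, had a log2fc of 0.65 ± 0.10 (edgeR's adjusted p 0.000504), with 51.0, 53.3 and 57.5 CPM at 6m and 66.0, 79.9 and 112.0 CPM at 28m. The lid's lowest values were those of Psmd3, 0.26 ± 0.07, and Psmd11, 0.27 ± 0.09, with adjusted p-values of 0.0108 and 0.0263 by edgeR, and neither was called with the trend removed, at 0.16 ± 0.07 and 0.21 ± 0.11. Psmd11 spanned 67.8 to 74.9 CPM at 6m and 70.2 to 106.9 CPM at 28m, with 6 of 8 mice above all those at 6m.

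All 7 assembly chaperones were higher at 28m, with a median log2fc of 0.46. The median was 0.05 once the length and GC trend was removed, and 3 were then called. Psmg4, which pairs with Psmg3 to help build the alpha ring, had the highest log2fc of all members, 1.32 ± 0.20 (edgeR's adjusted p 0.000381). It was scarce, at 2.74, 3.54 and 4.24 CPM at 6m and 4.90, 8.97 and 13.5 CPM at 28m, and the groups did not overlap. Psmg1, the partner of Psmg2, had the lowest value of the core chaperones, 0.46 ± 0.14 (edgeR's adjusted p 0.0139), and 5 of 8 mice at 28m lay above all those at 6m. Of the base chaperones, Psmd10 (gankyrin) had a log2fc of 0.46 ± 0.13, with 7.18, 8.48 and 9.12 CPM at 6m and 8.43, 10.9 and 16.3 CPM at 28m. With the trend removed Psmg1 and Psmd10 stood near 0, at -0.04 and -0.0014, and neither was called. Psmd5 had the lowest, 0.23 ± 0.08 (edgeR's adjusted p 0.0301), with 14.1, 16.7 and 18.03 CPM at 6m and 16.7, 18.7 and 21.5 CPM at 28m. Psmd9, at 0.44 ± 0.10, shares 25.5% of its exonic bases with Gm26745 on the other strand, and reads of both cannot be told apart without strand. The call for Psmd5 was lost when any of 4 single libraries was left out, replicates 4, 5 or 6 of the second-run 6m mice or replicate 6 of the 28m mice.

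Of the activators and the inhibitor, 1 was lower and 2 did not pass the test. Psme4 encodes PA200, a large activator that binds the end of the core in place of the regulatory particle, and was the only member lower at 28m. Its CPM was 440.2, 472.8 and 517.9 at 6m and 185.2, 281.3 and 426.4 at 28m, every 28m mouse below every 6m mouse. The log2fc was -0.71 ± 0.14 and the adjusted p 0.00139 by edgeR's quasi-likelihood test. With the length and GC trend removed Psme4 stood at -0.32, still called, and its call was lost in 1 of 28 other settings. Psme3 encodes the nuclear activator PA28 gamma and ranged from 61.7 to 69.8 CPM at 6m and from 58.3 to 75.01 CPM at 28m, with a log2fc of 0.02 and a 95% interval from -0.11 to 0.16. Psmf1 encodes the inhibitor PI31 and ranged from 14.6 to 18.02 CPM at 6m and from 14.0 to 20.7 CPM at 28m. Its log2fc was 0.13, with an interval from -0.04 to 0.30. Over 28 other settings Psmf1 passed the test in 3, all of which removed a trend with exonic or principal transcript length.

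The promoters of the members were searched for short motifs, and 3 are shown for a comparison of sequence. Sequences came from RefSeq (GRCm38.p6) as 250 bases before and 50 after each start site, and 37 promoters of 35 of the 43 genes were in that set. The letters TGACNNNGC, the core of the antioxidant response element that Nfe2l1 binds, were found on either strand in 6 of the 37 promoters (16.2%) and in 12.4% of all 32851 promoters. CCAAT, the NF-Y box, was found in 13 of them (35.1%) and in 37.4% of all. The 6 genes with TGACNNNGC were Psmb5, Psmb6, Psmc6, Psmd9, Psmd12 and Psme4, the last being the member lower at 28m. A match describes these letters only. The 250 bases before the start follow for Psmb5 and Psmb6, which were higher at 28m, and for Psme4, 5′ to 3′ on the strand of the gene, with the match in capitals. In Psme4 the match is on the opposite strand and runs past the start, so that only its first bases are printed.
Psmb5 (chr14:54617996-54618245, minus strand): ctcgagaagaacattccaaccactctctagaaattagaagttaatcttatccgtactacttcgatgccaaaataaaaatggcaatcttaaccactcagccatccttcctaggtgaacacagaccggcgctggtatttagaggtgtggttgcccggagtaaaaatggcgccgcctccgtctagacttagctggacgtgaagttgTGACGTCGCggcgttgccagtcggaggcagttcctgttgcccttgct
Psmb6 (chr11:70525107-70525356, plus strand): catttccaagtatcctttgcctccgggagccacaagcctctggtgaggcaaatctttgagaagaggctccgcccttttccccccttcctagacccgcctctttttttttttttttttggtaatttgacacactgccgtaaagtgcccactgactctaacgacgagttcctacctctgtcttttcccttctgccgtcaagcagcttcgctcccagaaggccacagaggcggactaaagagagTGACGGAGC
Psme4 (chr11:30771525-30771774, plus strand): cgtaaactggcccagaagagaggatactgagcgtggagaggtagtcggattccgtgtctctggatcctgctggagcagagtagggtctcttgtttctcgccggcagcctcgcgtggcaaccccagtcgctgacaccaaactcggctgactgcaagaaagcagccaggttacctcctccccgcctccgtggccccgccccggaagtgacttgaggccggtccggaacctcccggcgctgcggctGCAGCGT

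The 2 tissue-restricted core subunits were hardly detected and were not tested. Psma8, the testis form of an alpha subunit, had at most 6 counts in any library, and Psmb11, the thymus form of Psmb5, at most 3.

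Levels are compared between genes per kilobase of the principal transcript, in CPM per kilobase at 6m in the second run. The 31 structural subunits had a median of 68.7 and ranged from 20.7 for Psma2 to 178 for Psmb7, an 8.59-fold span. The core chaperones lay lower, between 5.72 for Psmg3 and 15.8 for Psmg2, and the base chaperones between 3.68 for Psmd5 and 8.49 for Psmd9, a range that overlapped that of the core chaperones. Among the activators and the inhibitor, Psme4 stood at 73.9, within the range of the structural subunits, and Psmf1 at 4.17. At 28m the median of the structural subunits was 103 and the span between the lowest and the highest was 9.23-fold.

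The 28m mice also differed among themselves, and the structural subunits varied together across mice. The mean log2 difference of the 31 structural subunits from the second-run 6m mean was between 0.29 and 1.01 in the 8 mice at 28m, against -0.05 to 0.06 in the 7 libraries at 6m. For the core, replicate 3 was highest with 1.27 and replicate 8 lowest with 0.27. For the lid and base these mice stood at 0.80 and 0.31, again the highest and the lowest. After group means were subtracted, the log2 CPM of pairs of structural subunits had a median Pearson correlation of 0.94 over the 29 libraries, against -0.00075 over pairs of all genes. These points share depth and library composition, and the value is a description. Without the 2 libraries that stood apart in the first run (below), it was 0.81 over 27 libraries. Psme4 went the other way, with a median correlation with the structural subunits of -0.79 over 29 libraries and -0.51 over 27. The same values were -0.61 and -0.40 for Psmf1, and -0.31 and -0.26 for Psme3. Over 27 libraries Psmd2, Psmd3 and Psmd11 had medians near 0 with the other structural subunits, at -0.08, -0.13 and -0.11. With the trend with length and GC content removed, the medians over 27 libraries were 0.59 among structural subunits, 0.13 among the chaperones and 0.36 for Psme4 with the structural subunits. On that scale Psmf1 and Psme3 were also positive, at 0.17 and 0.29, so that the direction of all 3 depended on the trend, and Psmd2, Psmd3 and Psmd11 stood at 0.52, 0.48 and 0.41.

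**Figure D3:**
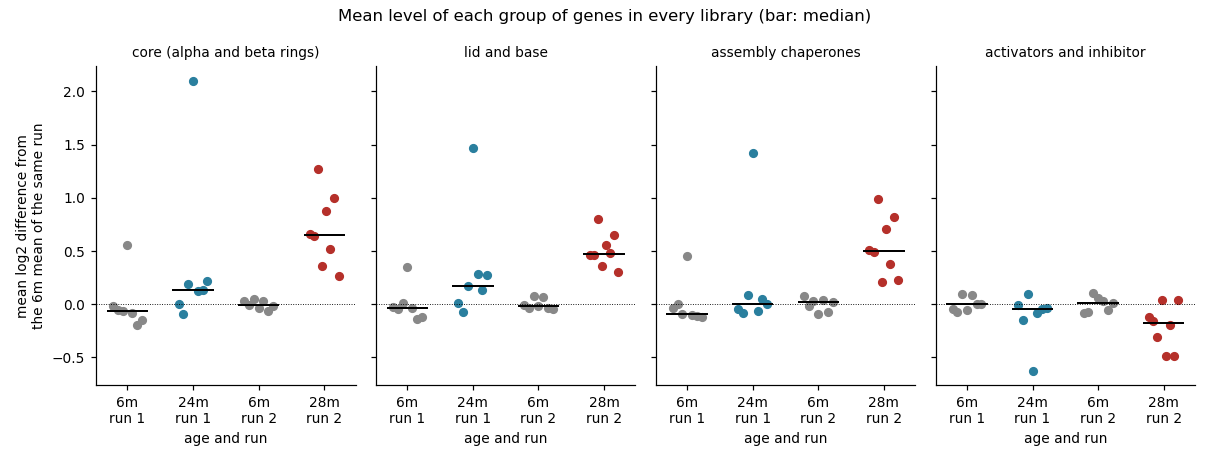
Mean log2 difference from the 6m mean of the same run for 4 groups of proteasome genes, 1 point per library with the group median as a bar. All 8 points at 28m lie above those of the second-run 6m libraries for the core and for the lid and base, and 1 mouse at 24m reaches 2.1 for the core.

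The differences at 28m followed transcript length across the transcriptome, and the proteasome genes are short. The principal transcript had a median of 1540 bases in the 41 members and 3052 bases in all genes tested. The rank correlation (Spearman's rho) of log2fc with length was -0.63 over 12870 genes and -0.64 over the 41 members, as a description across genes, which are not independent. Among all genes with transcripts of 1000 to 1500 bases the median log2fc was 0.48, and the 13 members of that length had a median of 0.65. At 1500 to 2000 bases the medians were 0.31 for all genes and 0.65 for 9 members, and at 2000 to 3000 bases 0.09 and 0.35 (8 members). At 6000 to 8000 bases the median of all genes was -0.45, and the single member there, Psme4, stood at -0.71.

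**Figure D4:**
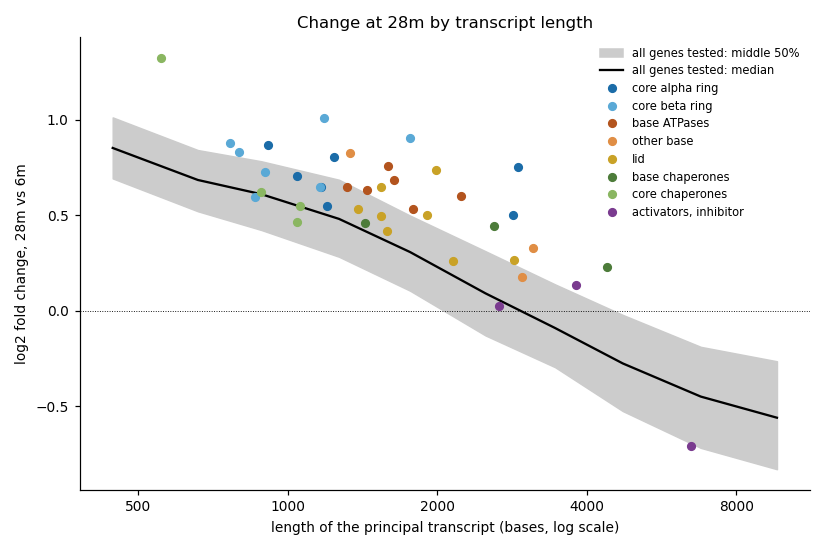
log2fc at 28m against the length of the principal transcript (log scale) for the 41 tested proteasome genes (points). The line and the grey band give the median and the middle 50% of all genes tested, by length class. Most points lie above the line, which falls from 0.85 for the shortest class to -0.56 for the longest, and Psme4 lies below it.

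Once each library was corrected for a trend with the length of the principal transcript and GC content, 26 of the 41 members were higher and 1 was lower at 28m, against 17.4% and 12.7% of all genes tested. The median log2fc of the members was then 0.24, and 36 of the 41 had a smaller value than before. In the base all 6 ATPases and all 3 other subunits were higher, with Psmd2 now past the test at 0.22 (edgeR's adjusted p 0.0241). Of the 14 core subunits 10 were called. The proteolytic Psmb5 and Psmb6 were among them, at 0.23 and 0.24 with adjusted p-values of 0.0332 and 0.00415 by edgeR. Psmb7 was not called, at 0.09 (edgeR's adjusted p 0.250), nor were Psma1, Psma4 and Psmb2. Only 3 of the 8 lid subunits, Psmd12, Psmd13 and Psmd14, and 3 of the 7 chaperones, Psmd5, Psmd9 and Psmg4, passed. Psmg4 remained the highest of the chaperones with 0.68, and Psmd10 and Psmg1 were not called, as given above. Psmf1 passed as well, at 0.30 (edgeR's adjusted p 0.0146). Psme4 stayed lower, at -0.32 (edgeR's adjusted p 0.00887). With the trend with length alone removed, 27 members were higher and 1 lower with a median log2fc of 0.27, against 17.1% and 12.5% of all genes. Over the 28 other settings the highest adjusted p-values were 0.0776 for Psmb5, 0.0113 for Psmb6, 0.250 for Psmb7 and 0.0834 for Psme4. That of Psmb5, at a log2fc of 0.19, came from removing the trend with length alone. That of Psme4, at a log2fc of -0.21, came from removing the trend and the 4 mice with the steepest trend together.

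The slope of this length trend differed between mice. It was fitted in each library as the change of the log2 CPM difference from the 6m mean for each log2 unit of length, and lay between -0.03 and 0.02 in the second-run 6m libraries and between -0.58 and -0.07 at 28m. The mice with the steepest slopes, replicates 7, 3 and 5, had the highest core values, 0.999, 1.27 and 0.88. The mildest slopes, -0.07 and -0.10 in replicates 8 and 4, went with the lowest core values, 0.27 and 0.36. With the trend removed the mean of the structural subunits was 0.21 to 0.46 in the 28m mice and -0.10 to 0.09 in the 6m mice. Without the 4 mice with the steepest slopes, 35 of the 41 members were higher and 1 was lower, with a median log2fc of 0.39, where 13.4% and 14.1% of all genes were called. RNA integrity values of the samples were not used here, and the part of RNA quality in this trend was not tested.

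**Figure D5:**
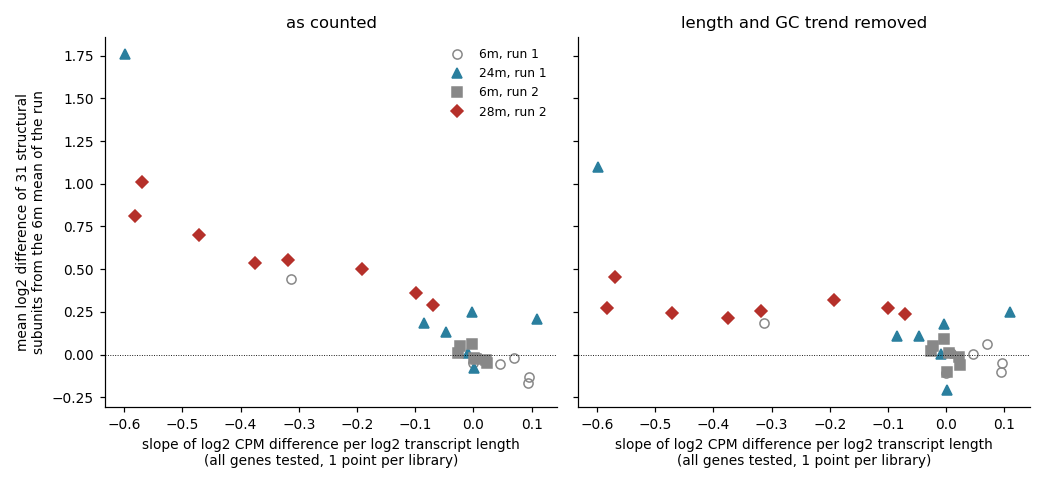
Mean log2 difference of the 31 structural subunits from the 6m mean of the run (vertical axis) against the slope of expression with transcript length (horizontal axis), 1 point per library, as counted on the left and with the length and GC trend removed on the right. The 28m points run from 0.29 to 1.01 on the left and from 0.21 to 0.46 on the right, above the second-run 6m points in both panels.

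At 24m no member passed the test, and 1 mouse set most of the group's mean. Of 41 members 0 were called higher or lower, with adjusted p-values of at least 0.377 by edgeR's quasi-likelihood test, and 11 had an unadjusted p under 0.05. Of all 13103 genes tested, 0.0611% were called higher and 0.0229% lower, and 11.8% had an unadjusted p under 0.05. DESeq2 and limma-voom called 0 members as well. In 0 members did all 7 mice at 24m lie above all 7 at 6m, as in 0.343% of all genes, and 0 members passed the test with a log2fc of at least 1, as 0.0458% of all genes did. The median log2fc was 0.44, and 39 of the 41 were positive. With the length and GC trend removed the median was 0.23, with 38 positive and 0 called. Replicate 4 at 24m stood far from the other 6 mice: its core mean was 2.1 on the log2 scale and that of the others lay between -0.09 and 0.22. It held the most Psmb4 of any library, 1239 CPM, where the other 6 mice at 24m had 128.9 to 170.3 CPM. Its Psmb5 was 356.3 CPM against 69.0 to 98.8 CPM in the others, and its Psme4 was the lowest at 183.1 CPM against 344.1 to 441.0 CPM. Its length slope, -0.60, was the steepest of the 29 libraries. Its mean over the 31 structural subunits was 1.76 as counted and 1.1 with the trend removed, where the other 6 mice had -0.08 to 0.25 and -0.21 to 0.25. Without this mouse the median log2fc was 0.09, 33 of 41 were positive and 0 were called, with an unadjusted p under 0.05 for Psmd4 (0.25 ± 0.11) and Psmd11 (0.30 ± 0.13), against 12.3% of all genes.

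One mouse at 6m stood apart in the first run and not in the second. Replicate 4 of the first-run 6m libraries had a core mean of 0.56 and a length slope of -0.31, and the second library of that mouse had -0.03 and 0.01. Its Psmb5 was 112.8 CPM, above the 63.1 to 74.7 CPM of the other 6 mice in that run. Over 13431 genes the log2 differences between the 2 libraries of this mouse had an SD of 0.62, and those of the other 6 mice 0.24 to 0.28.

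The 6m mice measured in both runs show how far members move with no change of age. Of the 41 members 0 differed between the runs by edgeR's quasi-likelihood test, as did 0 of 12884 genes. An unadjusted p under 0.05 was reached by 7, against 2.77% of all genes. This test ignored that 2 libraries came from each mouse, and with the mouse as a block 0 members were called as well. The members' median log2 difference, second run minus first, was -0.14, with 2 of the 41 positive and 0 of the 31 structural subunits. Set against the first-run 6m libraries in place of their own, the 28m mice had 27 members higher and 1 lower with a median log2fc of 0.46, and 12% of all genes were called higher and 11% lower. With first-run replicate 4 left out besides, 34 were higher and 1 lower, against 19.1% and 17.8% of all genes. The median log2fc was then 0.55, beside 0.60 against the second-run 6m libraries.

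The age effects at 28m and at 24m were compared with a test of their difference. With all 29 libraries 0 of 41 members differed, as did 0 of 13455 genes, and 0 members had an unadjusted p under 0.05 against 12% of all genes. The median difference of the members was 0.16, and 0.01 with the length and GC trend removed, where 0 were called as well. Without replicate 4 at 24m, 30 of the 41 differed, 29 of them with a larger value at 28m and Psme4 with a smaller one (-0.51 ± 0.17, adjusted p 0.0493 by edgeR's quasi-likelihood test). In that fit 8.92% of all genes were called in the first direction and 3.36% in the other. The members included all 14 core subunits, with median differences of 0.66 for the alpha ring and 0.77 for the beta ring, and all 6 ATPases of the base. Of the 8 lid subunits 4 were called. All 30 lay close to the threshold, with edgeR's adjusted p-values from 0.0389 to 0.0493, and the calls rest on leaving out that 1 mouse. With replicate 4 of the first-run 6m libraries left out as well, 0 of 41 members and 0% of all genes were called in either direction, the lowest adjusted p of a member was 0.0773 by edgeR, and 35 had an unadjusted p under 0.05, against 28.6% of all genes. The median difference of the members was 0.58 without the 24m mouse and 0.47 without both libraries. Neither of these fits was made with the trend removed. With limma-voom and without the 24m mouse 27 members had a larger value at 28m and 1 a smaller one, against 6.82% and 6.65% of all genes. With the mouse as a block besides, 34 and 1 did, and the share of all genes rose as well, to 16.8% and 16.7%.

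Genes that work with the proteasome but fall outside the symbol rule were examined as a list of 13 symbols, in which Sem1 and Ecpas are newer names of Shfm1 and AI314180, and 10 genes were tested. At 28m 7 were higher, 2 lower and 1 not called, beside 24.3% and 22.9% of all genes. With the length and GC trend removed 4 were higher and 0 lower, beside 17.4% and 12.7%. Pomp, the chaperone that helps the beta ring mature, had the highest log2fc as counted, 1.02 ± 0.16 (edgeR's adjusted p 0.000531). It spanned 52.9 to 60.6 CPM at 6m and 72.9 to 151.7 CPM at 28m. With the length and GC trend removed it stayed higher (0.68), and Fbxo7 then stood above it. Shfm1, a small lid subunit, had a log2fc of 0.83 ± 0.22, and Adrm1, a ubiquitin receptor of the base, 0.38 ± 0.07. Neither passed the test with the length and GC trend removed, with values of 0.32 and 0.10. The long transcripts of AI314180, which encodes the proteasome-associated protein Ecm29, and Ube3c, a ubiquitin ligase of the proteasome, were lower, at -0.53 ± 0.12 and -0.41 ± 0.13, and neither was called with the trend removed. Fbxo7 and Txnl1 stayed called, with values of 0.41 and 0.25 as counted and 0.80 and 0.44 with the trend removed. Usp14, a deubiquitinase bound to the proteasome, was not called as counted, at 0.19, and was called with the trend removed, at 0.42 (edgeR's adjusted p 0.000479).

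Of 18 shuttle, segregase and ubiquitin genes tested, 4 were higher and 2 lower at 28m, where 24.3% and 22.9% of all genes were called. The higher ones included Ubb and Rps27a, which encode ubiquitin, with log2fc values of 0.81 and 1.08. Vcp, the segregase, had 0.27. With the length and GC trend removed 7 of the 18 were higher and 2 lower, beside 17.4% and 12.7% of all genes. Ubb, Rps27a and Vcp were among the 7, Ubb at 0.47 (edgeR's adjusted p 0.0462), Rps27a at 0.38 and Vcp at 0.36. Of 6 regulators 1 was higher and 2 were lower, again beside 24.3% and 22.9% of all genes. The higher one was Nfe2l2, a factor of the antioxidant response, at 0.22 (edgeR's adjusted p 0.00908), and it was not called with the length and GC trend removed (0.15). Nfe2l1, the transcription factor known to induce proteasome genes when the proteasome is impaired, ranged from 865.2 to 965.0 CPM at 6m and from 589.5 to 1125 CPM at 28m, with a log2fc of -0.06 ± 0.12 (edgeR's adjusted p 0.716). With the length and GC trend removed its log2fc was 0.26 and passed the test. Foxo3 and Foxo4, which drive atrophy genes in muscle, were lower, at -1.24 ± 0.47 and -0.42 ± 0.12. With the trend removed Foxo4 was still called, at -0.32, and Foxo3 was not, at -0.88. Foxo1 was not called as counted, at 0.41 (edgeR's adjusted p 0.0977), and was called higher with the trend removed, at 1.08.

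The 5 immunoproteasome genes were all called higher at 28m, beside 24.3% of all genes, with log2fc values from 0.58 for Psme1 to 1.45 for Psmb8. With the length and GC trend removed 3 of the 5 were called, beside 17.4% of all genes, and Psme1 at 0.13 and Psmb9 at 0.77 were not. Ratios within each mouse were taken of CPM per kilobase of the principal transcript. Psmb8 over its constitutive counterpart Psmb5 had a median of 4.97% at 6m in the second run and 8.26% at 28m, with 4 of 8 old mice above all those at 6m. Psmb9 over Psmb6 had medians of 1.35% and 1.66%, with 2 of 8 mice above. Psmb10 over Psmb7 had medians of 4.72% and 5.28%, with 4 of 8 mice above.

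Markers of other cells moved at 28m too, and their counts stand beside 24.3% of all genes called higher and 22.9% called lower. All 4 endothelial genes were lower, and their summed level was 308 to 334 CPM at 6m in the second run and 146 to 246 CPM at 28m. Of 4 fibroblast genes 3 were lower, with sums of 511 to 2700 CPM at 6m and 292 to 1030 CPM at 28m. Of 7 slow-fibre genes 4 were higher, with sums of 80.4 to 129 CPM and 103 to 253 CPM. None of 3 immune genes tested was called, and the 5 in the count table had sums of 6.47 to 18.9 CPM and 6.85 to 43.5 CPM. Of 8 fast-fibre genes 3 were higher and 1 lower, and of 4 Schwann cell genes 1 was higher. None of 4 adipocyte genes and 1 erythrocyte gene tested was called. With the length and GC trend removed 3 of the 4 endothelial genes were called lower, and 0 of the 4 fibroblast and 0 of the 7 slow-fibre genes were called, beside 17.4% of all genes higher and 12.7% lower. On that scale 1 of the 8 fast-fibre and 1 of the 4 Schwann cell genes were called higher. Their part in the members' differences was not tested.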

How the data were processed

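Poly-A RNA of the whole TA was sequenced by the study as 75-base single-end reads, which the authors aligned to mm10 with STAR 2.5.4b and counted per gene; the deposited values are these read counts, not normalized. The strand setting of the counting is not given in the sources used here, and exons of 10 of the 41 tested members overlap another gene in GENCODE vM21. Groups came from the sample labels, which give 7 mice at 24m and 8 at 28m (the series' design text has these numbers the other way round). The column names mark the second library of a 6m mouse as a repeat and so pair the runs; the deviations of the 2 libraries from the group means correlated between 0.22 and 0.81 over all genes in the 7 mice. Total counts were between 17633475 and 33499162 per library.

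Each age was compared with the 6m libraries of its run in edgeR 4.0.16 (R 4.3.3) with filterByExpr, TMM and the quasi-likelihood F test, adjusted by Benjamini-Hochberg over all genes tested. The difference of the age effects was fitted over all 29 libraries. CPM used TMM factors over all libraries, and log2 CPM a prior count of 2. Transcript length was that of the APPRIS principal transcript, and the length and GC trend was removed as a per-library spline with 5 degrees of freedom for each. Alternatives were DESeq2 1.42.0, limma-voom (limma 3.58.1), other scalings and filters, the other run's 6m libraries and leaving out single libraries or, across runs, single mice. The main fit, DESeq2, limma-voom and the fit with the exonic length and GC trend removed were run on simulated counts. The setting with principal transcript length was not among them, and the simulated counts held no length trend between libraries and no outlying library. The text names the catalytic subunits, the highest and lowest member of each group of subunits by log2fc at 28m, members past a log2fc of 1, those called against the rest, those lowest in adjusted p at 24m and those not tested. The members, gene lists and tests were chosen with earlier results of these data known. Mice are the replicates where an age is compared with the 6m libraries of its run. The tests between runs and of the difference of age effects counted both libraries of a 6m mouse separately, except with the mouse as a block. No column was left without a mapped sample. A gene of the ubiquitin list is not reported here.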

Additional observations from a re-analysis of the deposited data

Results flagged for a closer look

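Single libraries lay far from the others of their group by Dixon's criterion at its 95% critical value, which chance alone meets in about 1 of 20 groups. Over 41 members and 4 groups it was met in 71 of 164 cases and in 37 members. Replicate 4 at 24m was high in 36 members and low in 1, replicate 4 of the first-run 6m libraries was high in 30, and replicate 3 at 28m was high in 4.

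Replicate 4 at 24m had mean log2 differences from the 6m mean of 2.1 for the core, 1.47 for the lid and base, 1.42 for the assembly chaperones and -0.625 for the activators and the inhibitor. Its slope of log2 CPM with log2 transcript length was -0.598. Its levels in the core were 201.0 CPM for Psma3, 484.7 for Psma7, 647.4 for Psmb1, 160.5 for Psmb2, 1239 for Psmb4, 356.3 for Psmb5, 658.3 for Psmb6 and 692.3 for Psmb7. In the base and lid they were 536.5 CPM for Psmc1, 253.5 for Psmc2, 556.1 for Psmd2, 615.0 for Psmd4, 253.3 for Psmd11, 450.8 for Psmd13 and 188.9 for Psmd14. Among the chaperones they were 22.21 CPM for Psmd10, 20.72 for Psmg1 and 29.48 for Psmg4, and Psme4 was low at 183.1 CPM.

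Replicate 4 of the first-run 6m libraries had mean log2 differences of 0.557 for the core, 0.352 for the lid and base and 0.452 for the chaperones, and a length slope of -0.313. Its levels in the core were 106.7 CPM for Psma3, 127.2 for Psma7, 146.5 for Psmb1, 86.96 for Psmb2, 215.8 for Psmb4, 112.8 for Psmb5, 180.9 for Psmb6 and 340.4 for Psmb7. In the base and lid they were 196.4 CPM for Psmc1, 163.8 for Psmc2, 206.4 for Psmd4, 114.7 for Psmd13 and 81.08 for Psmd14. Among the chaperones they were 11.81 CPM for Psmd10, 12.53 for Psmg1 and 6.969 for Psmg4. Replicate 3 at 28m was high for Psma3 at 142.6 CPM, for Psmb7 at 485.6 CPM and for Psmc2 at 222.3 CPM.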

How the results depend on the processing

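At 28m, 36 to 38 members were higher and 1 lower under DESeq2, limma-voom, DESeq2 size factors, upper-quartile scaling and both other filters on low counts, and with any single library left out (36 to 38 higher, 1 lower, median log2fc 0.53 to 0.63). Removing a trend with gene length moved the values most. With that of exonic length and GC content removed, 32 were higher and the median was 0.38. With principal transcript length and GC content, an alternative chosen after seeing the data, 26 were higher and the median was 0.24, and 13 of the 38 calls were lost; with that length alone, also chosen later, 27 were higher and the median was 0.274. Also chosen after seeing the data was leaving out 28m replicates 2, 3, 5 and 7, which gave a median of 0.39, and with the trend removed as well 27 higher, 0 lower and a median of 0.25. The Psmd10 log2 fold change, 28m vs 6m, turned to -0.10 (exonic length) and -0.0014 (principal transcript). The Psmg1 log2 fold change, 28m vs 6m, turned to -0.0266 (exonic length), -0.0419 (principal transcript), -0.0411 (its length alone) and -0.0418 (the same without those 4 mice). Fewer samples entered the fits without those 4 mice; for the others the cause was not tested.

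At 24m 0 members were called in every setting. The median log2fc was 0.09 to 0.53 with single libraries left out, and lowest without replicate 4 at 24m. Without that mouse and 6m replicate 4 of the first run, a pair chosen after seeing the data, it was 0.18. The count of members whose age effects differed was 0 to 30 with single mice left out, a 6m mouse with both its libraries. In settings added after seeing the data, it was 0 without 24m replicate 4 and first-run 6m replicate 4 together, and, without 24m replicate 4 alone, 28 by limma-voom and 35 with the mouse as replicate block. With the mouse as replicate block, 0 members differed between the runs at 6m, and 0 between the age effects (limma-voom, estimated correlation 0.74), as without the block. With 7 or 8 mice a group, members at a few CPM, such as Psmg4, rest on the fewest counts.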
